A study of Mus musculus with 12 samples.

Results

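The comparison described here sets mouse embryonic fibroblasts treated with DZ directly against the same cells treated with adenine. It takes the 3 DZ libraries and the 3 adenine libraries, 6 of the 12 libraries in the study, and uses no control library in the contrast. DZ (Deazaneplanocin A) is a carbocyclic nucleoside, an analogue of adenosine, and inhibits S-adenosylhomocysteine hydrolase (AHCY). Adenine is the free purine base, without the sugar or the ring that stands in for it. All cells carried the label C57 PER2::LUC: one allele of the clock gene Per2 carries a luciferase reporter, and the cells were grown to confluence before treatment. The DZ dishes received 10 µM DZ, the adenine dishes 1 mM adenine and the control dishes (CTL) no compound. Another group received 1 mM S-adenosylmethionine (SAM) and served only to estimate the spread between dishes. All 4 groups had 3.3 mM HCl in the medium and were lysed after 24 h. The doses of DZ and adenine differ, so the compound and its dose cannot be told apart in any difference below. The 3 libraries of a group are dishes of the same immortalized cells, and no source says that they came from separate animals. The p-values therefore measure the spread between dishes.

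SAM donates the methyl group in most methylation reactions of the cell, and what remains, S-adenosylhomocysteine, inhibits the methyltransferases that made it. AHCY clears it by hydrolysis to adenosine and homocysteine, so a block of AHCY slows methylation of RNA, DNA, histones and other proteins. Adenine enters the purine pool through adenine phosphoribosyltransferase (APRT), while adenosine and its analogues are substrates or inhibitors of adenosine kinase (ADK), adenosine deaminase (ADA) and AHCY. The study reports that adenine also inhibited purified AHCY, and that S-adenosylhomocysteine rose in cells given either DZ or adenine. The comparison thus asks how the transcriptome under an established AHCY inhibitor differs from that under adenine, itself reported to inhibit AHCY.

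Values are log2 CPM, the authors' read counts per gene scaled to the size of the library, and a log2 difference is the mean of the 3 DZ dishes minus the mean of the 3 adenine dishes, positive where DZ was higher. The 6 libraries held between 48112727 and 55408822 reads on the listed genes, and the lowest gene in any of them still had 49 reads. Of 12591 genes tested, 8093 (64.3%) passed a false discovery rate of 0.01 in limma, 4037 (32.1%) higher under DZ and 4056 (32.2%) lower. Most of these differences were small, with a median absolute log2 difference of 0.435 among the genes called. At an absolute log2 difference of at least 1 there were 925 genes (7.35%), of which 241 were higher and 684 lower under DZ. These percentages are the background against which the counts of each gene list below are read. The 3 DZ and the 3 adenine values did not overlap for 9774 of the 12591 genes, so dishes without overlap were common. Of the markers of other cell types, none of the endothelial, epithelial or muscle genes was in the table, and 10 of 13 fibroblast genes were. The fibroblast genes summed to 28200 to 28800 CPM under DZ and to 24900 to 27300 CPM under adenine, without overlap, and 6 of the 10 were called lower and 2 higher under DZ. Of 6 neural markers, Tubb3, Sox2 and Nes were in the table, were lower under DZ and summed to 90.7 to 93.5 CPM against 154 to 164 CPM under adenine. The only leukocyte marker in the table, Cd68, summed to 2.73 to 3.78 CPM under DZ and 10.8 to 12.3 CPM under adenine, and the other 9 of the 10 leukocyte markers were absent from it. Of 5 adipocyte markers Pparg alone was in the table, at 8.37 to 10.2 CPM under DZ and 4.97 to 5.77 CPM under adenine. In RNA from whole dishes, more cells of a kind and more RNA per cell cannot be told apart, and the part of these cell types in the results below was not tested. The first DZ dish was the lowest of the 3 DZ dishes for 36.4% of all genes. For the genes of mitosis, DNA replication, collagens, contraction, pyrimidine supply and glycolysis described below, that share was between 81.0% and 93.3%.

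**Figure D1:**
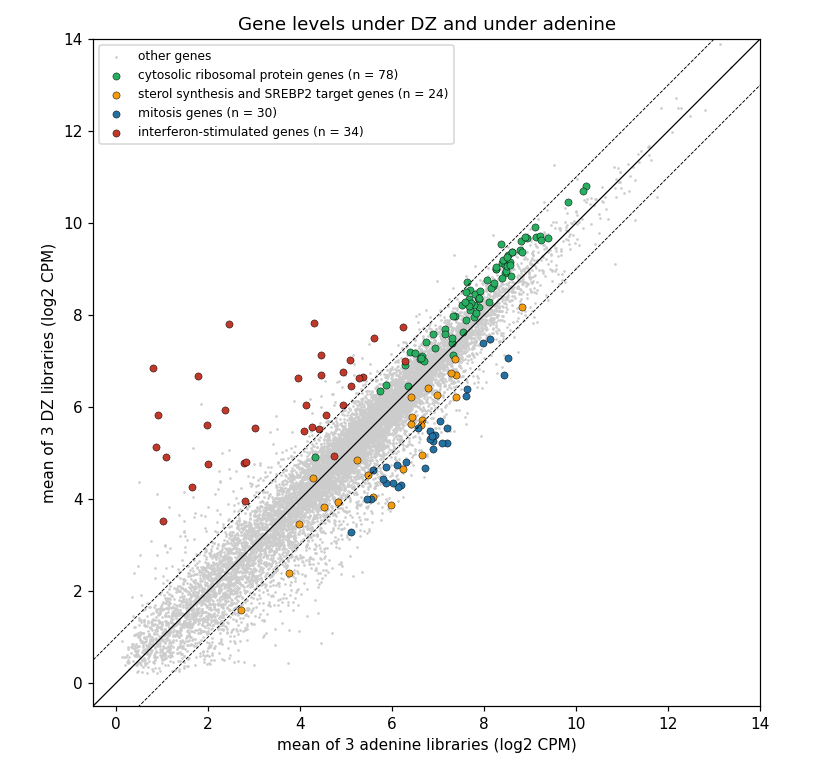
Mean level of each of 12591 genes in the 3 adenine libraries (x axis, log2 CPM) and the 3 DZ libraries (y axis, log2 CPM). The solid line marks equal levels and the dashed lines a log2 difference of 1; the 34 interferon-stimulated genes lie above the line, the 30 mitosis genes below it, and the 78 ribosomal protein genes mostly a little above it.

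Interferon-stimulated genes led the differences in favour of DZ. Cells that sense foreign or misplaced nucleic acid, or that receive type I interferon, activate a transcription factor complex that holds IRF9 and binds the interferon-stimulated response element in the promoters of antiviral genes. Of 49 such genes listed, 34 were in the table, and all 34 were higher under DZ, where the background for that direction is 32.1%. Their median log2 difference was 1.99, against -0.00146 over all genes, and 32 of the 34 differed by at least 1. The range ran from 0.21 for Isg20, an exonuclease of single-stranded RNA, to 6.04 for Ifi44. The other 15 names, among them Oas1a, Mx1, Rsad2 and Irf7, were not in the table, which holds only genes with at least 1 CPM in every library, so a gene silent under any of the 4 treatments is not analysed here.

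The promoters of the leading genes are shown because they carry the element that gives the group its name. Each run holds 250 bases before the transcription start and 50 after it, from RefSeq's GRCm38.p6 annotation, and was placed on GRCm39 by an exact match. Isg15 lies at chr4:156285226-156285525 (minus strand), Ifit1 at chr19:34618039-34618338 (plus strand) and Ifi44 at chr3:151455498-151455797 (minus strand). Capitals mark each match to GAAANNGAA, the core of the interferon-stimulated response element, on either strand, where overlapping matches run together.
Isg15: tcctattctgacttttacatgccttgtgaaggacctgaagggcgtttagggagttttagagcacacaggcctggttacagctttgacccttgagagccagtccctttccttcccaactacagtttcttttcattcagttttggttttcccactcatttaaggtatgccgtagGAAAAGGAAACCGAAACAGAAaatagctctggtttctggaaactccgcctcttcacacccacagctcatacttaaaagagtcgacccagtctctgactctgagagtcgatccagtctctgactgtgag
Ifit1: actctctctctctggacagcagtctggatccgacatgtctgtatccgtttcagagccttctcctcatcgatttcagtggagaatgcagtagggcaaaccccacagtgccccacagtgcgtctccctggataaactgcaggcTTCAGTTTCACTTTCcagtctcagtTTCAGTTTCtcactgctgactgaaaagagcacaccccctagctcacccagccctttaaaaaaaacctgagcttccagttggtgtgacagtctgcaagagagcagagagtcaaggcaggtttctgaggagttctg
Ifi44: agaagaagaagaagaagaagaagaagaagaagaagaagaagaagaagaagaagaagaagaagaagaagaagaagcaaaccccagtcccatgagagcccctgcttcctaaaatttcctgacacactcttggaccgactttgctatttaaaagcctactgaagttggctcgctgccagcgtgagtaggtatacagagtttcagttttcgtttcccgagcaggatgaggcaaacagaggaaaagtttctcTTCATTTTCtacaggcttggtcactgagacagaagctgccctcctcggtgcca
Isg15 and Ifit1 held 3 matches each and Ifi44 held 1, while the window of Oasl2 held 0. Over the list, 27 of the 34 genes had windows, and 19 of their 35 windows (54.3%) held the core. Among 11362 windows of the genes tested the share was 7.01%. In windows of the ribosomal protein genes it was 19.1%. A match is a description of the letters and not evidence that a factor binds there.

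The effector Ifi44 (chr3, 151436559 to 151455625), an interferon-induced protein of infected cells, was at 6.80, 6.93 and 6.81 log2 CPM in the 3 DZ libraries and at 0.68, 0.55 and 1.18 in the 3 adenine libraries. The libraries did not overlap, which the rule that named the largest differences required. The difference was 6.04 ± 0.14 (SE), a 66.0-fold higher level under DZ (adjusted p = 2.99e-14, limma with Benjamini-Hochberg adjustment, as for every adjusted p below). In the control dishes Ifi44 was at 3.997 ± 0.15 (SD, n = 3), between both treatments: DZ lay 2.85 above control and adenine 3.20 below it. Ifit1, whose product binds foreign RNA by its 5′ cap, was at 7.72, 7.85 and 7.81 under DZ and at 2.41, 2.40 and 2.57 under adenine. Its level was 40.3-fold higher under DZ, and the control mean of 4.45 again lay between the groups. Isg15, a ubiquitin-like protein that is joined to other proteins, was at 6.67, 6.72 and 6.59 under DZ and at 1.61, 1.89 and 1.80 under adenine, a log2 difference of 4.89 ± 0.09 (adjusted p = 8.95e-15). Its control mean was 3.06, which placed the 3 adenine dishes below all 3 control dishes as well. Oasl2, of the oligoadenylate synthetase family, was 29.8-fold higher under DZ, and Xaf1, a pro-apoptotic interferon target, 19.2-fold higher. Ifit3 and Ifit3b were 11.6-fold and 11.7-fold higher, and Apol9a 12.5-fold higher; each of these genes has a near-identical neighbour (Ifit3b, Ifit3 and Apol9b), so reads may be divided among the copies and their single values are uncertain.

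The same 34 genes include factors and sensors that act upstream, described here. Irf9, the DNA-binding part of that complex, was at 6.68, 6.72 and 6.67 log2 CPM under DZ and at 4.48, 4.39 and 4.49 under adenine, a log2 difference of 2.24 ± 0.04 (adjusted p = 8.95e-15). No dish of the groups overlapped, and Irf9 was below control under adenine, by 0.77, and above it under DZ, by 1.47. Its partner Stat2 had a log2 difference of 1.94 ± 0.05. The RNA sensors Rigi and Ifih1, which detect double-stranded RNA in the cytosol, were 3.58-fold and 3.95-fold higher under DZ, and their relative Dhx58 was 5.70-fold higher. Adar, which edits adenosine to inosine in double-stranded RNA, was 1.64-fold higher. Against the same 3 control libraries, the median of the 34 genes was 1.76 higher for DZ and 0.275 lower for adenine, and 33 of the 34 were called higher under DZ than in control. The background of that comparison is 22.6% of genes called higher and 23.4% called lower under DZ.

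**Figure D2:**
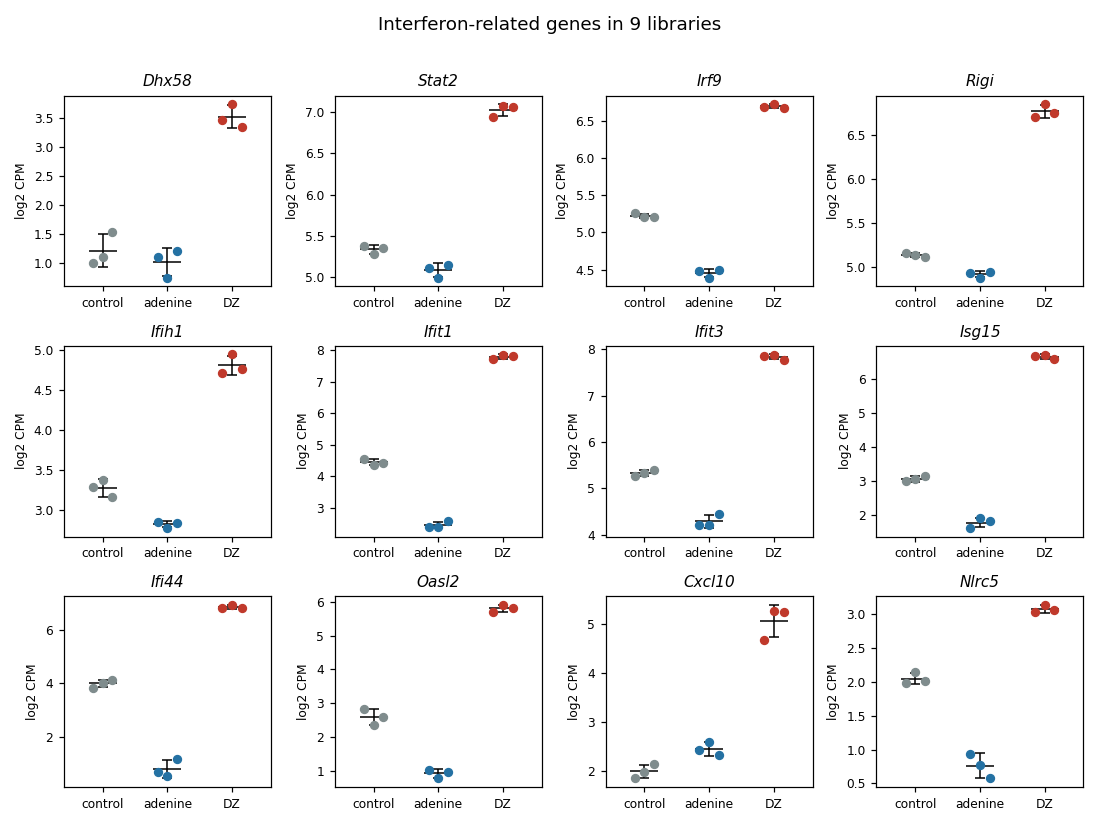
Levels of 12 interferon-related genes (y axis, log2 CPM, its range set per panel) in the 3 control, 3 adenine and 3 DZ libraries; points are dishes, and the bar and whiskers are mean and SD. In every panel the 3 DZ points lie above the 3 adenine points; for Ifi44 and Ifit1 the control points lie between them.

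Antigen presentation by MHC class I and the chemokines, which interferons and NF-kappaB control in part, split more. Of 16 MHC class I genes, 11 were higher and 2 lower under DZ, with a median log2 difference of 0.423. Nlrc5, the transactivator of the class I genes, was at 3.03, 3.14 and 3.06 under DZ and at 0.94, 0.78 and 0.58 under adenine, a log2 difference of 2.31 ± 0.14. The control mean of Nlrc5 was 2.05, so the DZ dishes were above control and the adenine dishes below it, without overlap. The heavy chains H2-T23, H2-K1 and H2-D1 were 2.57-fold, 1.73-fold and 1.54-fold higher under DZ, and the peptide transporter Tap1 2.70-fold. The chaperones Tapbp and Calr were lower under DZ, by 0.18 and 0.15. Of 19 chemokines and NF-kappaB targets, 7 were higher and 11 lower under DZ (median -0.249). Cxcl10, a chemokine that attracts T cells and is itself induced by interferon, was at 4.68, 5.25 and 5.25 log2 CPM under DZ and at 2.42, 2.59 and 2.31 under adenine. It was 6.13-fold higher under DZ (adjusted p = 1.13e-10), and the monocyte attractants Ccl7 and Ccl2 were 1.97-fold and 1.52-fold higher. The inhibitor Nfkbia, a feedback target of NF-kappaB, lay on the other side and was 1.70-fold lower under DZ, as was the membrane-bound chemokine Cx3cl1 (2.02-fold lower). Tnfaip3, another feedback inhibitor, did not pass the threshold (log2 difference 0.10, 95% interval -0.02 to 0.23), and both compounds held it above control, DZ by 1.16 and adenine by 1.06.

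Genes of DNA replication and cell division were lower under DZ than under adenine almost throughout. Of 30 mitosis genes, 30 were lower under DZ (background 32.2% for that direction), with a median log2 difference of -1.5, and 27 of them differed by at least 1. The 35 DNA replication genes had a median against control of 0.244 for DZ and 1.27 for adenine. DZ minus adenine, 33 were lower and 1 higher, with a median of -0.932. The first DZ dish was the lowest of the 3 for 28 of the mitosis genes and 31 of the replication genes. Without it the counts called lower were 30 and 33, and the medians -1.445 and -0.885.

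Among the mitosis genes, Mki67 (chr7, 135291513 to 135318299), which coats mitotic chromosomes and is the common marker of dividing cells, was at 6.49, 6.83 and 6.74 log2 CPM under DZ and at 8.38, 8.44 and 8.47 under adenine. It was 3.34-fold lower under DZ, with no overlap of dishes. The control mean of Mki67 was 6.41 ± 0.06, which put the DZ dishes 0.28 and the adenine dishes 2.02 above control. Kif11, the motor that separates the spindle poles, was at 5.02, 5.33 and 5.29 under DZ and at 7.03, 7.09 and 7.14 under adenine (log2 difference -1.87 ± 0.06). The cyclins Ccna2 and Ccnb2, which drive entry into mitosis, were 3.92-fold and 3.68-fold lower, and the checkpoint kinase Bub1 3.69-fold lower. Kif20a, a motor of cytokinesis, had the largest difference on the list at -2.04, and Tpx2, a spindle assembly factor, the smallest at -0.59. Relative to the same controls the median of the 30 genes was 0.182 for DZ and 1.67 for adenine.

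Of the replication genes, those of the MCM helicase differed among themselves. Mcm5 was at 5.37, 5.69 and 5.58 under DZ and at 6.99, 6.90 and 6.98 under adenine, and Mcm4 was 2.16-fold lower under DZ. Mcm2 went the other way and was at 7.99, 7.98 and 8.03 under DZ and 7.78, 7.75 and 7.82 under adenine, 0.22 higher (adjusted p = 1.48e-05). It was the single member of the list that was higher under DZ. Cdc6, which loads the helicase, was 3.04-fold lower, Lig1, which joins Okazaki fragments, 3.06-fold lower and Pcna, the sliding clamp, 1.81-fold lower. For Cdt1, the partner of Cdc6 in loading, the log2 difference was -0.03 with a 95% interval of -0.10 to 0.05. Of 16 enzymes of pyrimidine and deoxynucleotide supply, 9 were lower and 5 higher, and thymidine kinase Tk1 and the ribonucleotide reductase subunits Rrm2 and Rrm1 were 2.77-fold, 2.41-fold and 1.63-fold lower. The p53 target Cdkn1a, an inhibitor of cyclin-dependent kinases, was also lower under DZ, at 3.00, 3.08 and 3.31 against 4.39, 4.45 and 4.45 under adenine. Over the 20 p53 targets measured there was no common direction, with 10 higher and 5 lower (median 0.144).

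The promoter of Mcm5 at chr8:75835887-75836186 (plus strand) is shown because replication genes are known targets of E2F factors. Capitals mark 2 overlapping matches, 1 on each strand, to TTTNGCGC, an E2F core.
Mcm5: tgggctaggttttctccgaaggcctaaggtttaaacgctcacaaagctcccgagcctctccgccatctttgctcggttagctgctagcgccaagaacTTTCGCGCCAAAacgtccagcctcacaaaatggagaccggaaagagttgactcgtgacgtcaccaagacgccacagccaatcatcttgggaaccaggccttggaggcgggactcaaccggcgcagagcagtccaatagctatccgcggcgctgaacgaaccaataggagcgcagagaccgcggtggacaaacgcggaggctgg
The core was in 9 of 32 windows (28.1%) of the replication genes and in 2.53% of the windows of all genes tested. For the mitosis genes the share was 3.85%.

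Sterol synthesis genes were lower under DZ almost without exception. Of 24 measured targets of SREBP2, the factor that turns on cholesterol synthesis and uptake, 23 were lower under DZ and 0 higher, with a median log2 difference of -0.742. Idi1 (chr13, 8935537 to 8942487), the isopentenyl diphosphate isomerase, was at 3.89, 3.81 and 3.88 log2 CPM under DZ and at 6.08, 5.93 and 5.90 under adenine. The DZ dishes were all below the adenine dishes by more than 2 units, a 4.32-fold difference (adjusted p = 3.35e-14), although a processed copy of Idi1 may share its reads. Hmgcs1, which makes the precursor of mevalonate, was 2.24-fold lower under DZ, at 6.22, 6.26 and 6.18 against 7.40, 7.38 and 7.36. Acat2, which joins the first acetyl-CoA units of the pathway, differed by -1.71. Ebp, a sterol isomerase, did not pass the threshold, with a log2 difference of 0.17 (95% interval 0.03 to 0.32). Against control, the list's median was 0.122 for DZ and 0.996 for adenine. The background of the adenine comparison is 30.6% of genes called higher and 31% called lower under adenine. Of 11 fatty acid synthesis and LXR genes, 8 were lower under DZ and 1 higher, led by Fasn, the fatty acid synthase (1.95-fold lower). The desaturases Scd1 and Scd2, which make monounsaturated fatty acids, were 1.55-fold and 1.46-fold lower.

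**Figure D3:**
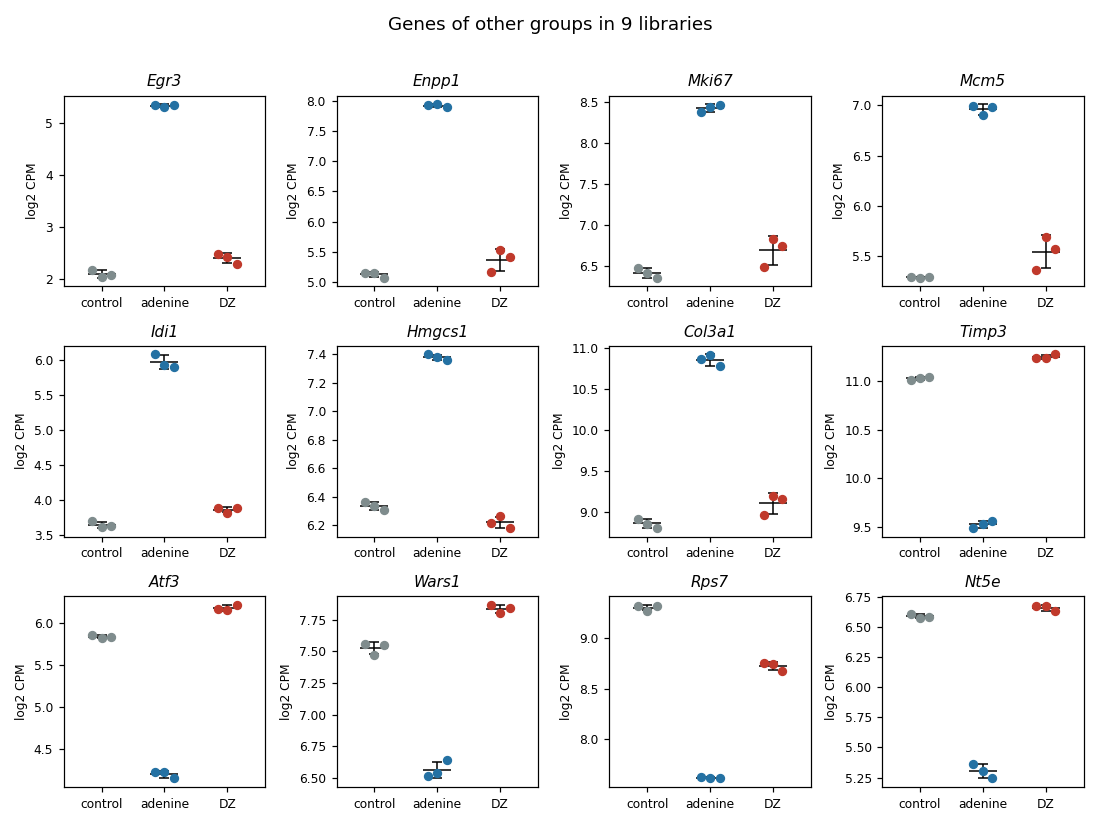
Levels of 12 genes from the other groups (y axis, log2 CPM, its range set per panel) in the 3 control, 3 adenine and 3 DZ libraries, with mean and SD. The adenine points stand apart from the DZ points in every panel; for Egr3, Enpp1, Idi1, Col3a1 and Nt5e the DZ mean lies 0.07 to 0.30 above the control mean, while for Rps7 both treatments lie below control.

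Immediate early genes and the feedback genes of MAPK signalling were mostly lower under DZ than under adenine. Growth factors act through the MAPK cascade to switch on the EGR and FOS factors within minutes, and the same cascade induces its own inhibitors of the DUSP, SPRY and SPRED families. Egr3 (chr14, 70314350 to 70320063) was at 2.49, 2.42 and 2.30 under DZ and at 5.36, 5.31 and 5.35 under adenine, a log2 difference of -2.94 ± 0.07. Its DZ dishes also lay above all 3 control dishes, by 0.30 in the mean (adjusted p = 0.00301). Egr2, at a lower level, was 9.95-fold lower under DZ and Egr1 2.47-fold lower. Fos was at 1.09, 0.93 and 0.97 against 3.30, 3.17 and 3.07, a 4.54-fold difference. Against control, the median of the 20 immediate early genes was 0.183 for DZ and 0.432 for adenine. DZ minus adenine, 13 of the 20 were lower and 7 higher. The higher ones included Nr4a2, an orphan nuclear receptor (2.65-fold), and Myc, a growth regulator (1.53-fold). The MAPK feedback genes had a median against control of 0.219 for DZ and 0.845 for adenine. DZ minus adenine, 9 of 13 were lower and 0 higher (median -0.413). Etv4, a transcription factor downstream of the cascade, was 2.97-fold lower, the ERK phosphatase Dusp6 2.00-fold lower and Spry2 1.78-fold lower. Spry1 did not pass the threshold (log2 difference -0.11, 95% interval -0.20 to -0.03), and it was above control under both, by 1.14 with DZ and 1.25 with adenine.

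The extracellular matrix genes, central to what fibroblasts make, were lower under DZ than under adenine in the main. The 30 collagens and collagen-modifying enzymes had a median against control of 0.0953 for DZ and 0.612 for adenine. DZ minus adenine, 22 were lower and 3 higher (median -0.491). The first DZ dish was the lowest of the 3 for 26 of the 30, and without it 22 were lower, with a median of -0.478. Col3a1, a fibrillar collagen, was at 8.96, 9.20 and 9.16 log2 CPM under DZ and at 10.86, 10.92 and 10.78 under adenine, a 3.35-fold difference. Col6a1, of microfibrils, was 2.29-fold lower and Col11a1 2.89-fold lower under DZ. Col1a1, the main fibroblast collagen, did not pass (log2 difference -0.15, 95% interval -0.28 to -0.03), with 12.23, 12.38 and 12.35 under DZ against 12.50, 12.57 and 12.35 and hence overlapping dishes. In the other direction stood the crosslinking enzyme Loxl4, 2.66-fold higher under DZ, and Timp3, an inhibitor of matrix proteases. Timp3 was at 11.25, 11.24 and 11.28 under DZ and at 9.49, 9.53 and 9.55 under adenine, with control at 11.03 ± 0.01. Of 13 matrix metalloproteinases and TIMPs, 6 were lower and 4 higher. The proteases Mmp15, Mmp9 and Mmp3 were 4.46-fold, 3.74-fold and 1.92-fold lower under DZ. For Mmp13, a collagenase, the log2 difference was -0.16 (95% interval -0.42 to 0.11), and DZ and adenine stood 1.88 and 2.03 above control.
Of 18 contractile and YAP or SRF target genes, 10 were lower and 4 higher, the same counts as without the first DZ dish, which was the lowest for 15 of them. Tagln and Tpm2, of the actin cytoskeleton, were 1.95-fold and 1.79-fold lower, but the YAP target Ankrd1 was at 3.71, 3.85 and 3.94 against 1.19, 1.16 and 1.10, 6.42-fold higher under DZ. Smooth muscle actin, Acta2, had a log2 difference of -0.02 (95% interval -0.10 to 0.05).

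Genes of the amino acid response were higher under DZ than under adenine. ATF4 is translated when amino acids are short or the ER is stressed, and it turns on amino acid synthesis, transport and tRNA charging. Against control, the median of 31 target genes was 0.141 for DZ and -0.38 for adenine. DZ minus adenine, 27 of the 31 were higher and 1 lower, with a median log2 difference of 0.521. Atf3 (chr1, 190902493 to 190950241), a transcription factor of the same response, was at 6.16, 6.15 and 6.21 under DZ and at 4.23, 4.23 and 4.15 under adenine, 3.92-fold higher. Its control mean was 5.83, so the adenine dishes lay 1.63 below control and the DZ dishes 0.34 above it. Trib3, a pseudokinase that restrains ATF4, was 0.13 below control under DZ. Ddit3, the pro-apoptotic factor CHOP, and Trib3 were 2.15-fold and 2.18-fold higher under DZ than under adenine. Cth, which makes cysteine from cystathionine, was 2.14-fold and Asns, asparagine synthetase, 1.59-fold higher. Atf4 itself differed by 0.25 ± 0.03. Ddit4, an inhibitor of mTORC1, was the single member lower under DZ (-0.52). The 20 cytosolic aminoacyl-tRNA synthetases, which load tRNAs with amino acids, had a median against control of 0.207 for DZ and -0.316 for adenine. DZ minus adenine, 18 were higher and 0 lower (median 0.399). Wars1, for tryptophan, was at 7.86, 7.80 and 7.85 against 6.52, 6.54 and 6.64, 2.42-fold higher, and Sars1 and Nars1, for serine and asparagine, were 1.79-fold and 1.81-fold higher. Wars1 is also induced by interferon gamma, and its part in either list was not tested.

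The windows of Atf3 at chr1:190915481-190915780 (minus strand) and of Trib3 at chr2:152185931-152186230 (minus strand) are shown with capitals on TGATGNAA, the core of the amino acid response element, on either strand.
Atf3: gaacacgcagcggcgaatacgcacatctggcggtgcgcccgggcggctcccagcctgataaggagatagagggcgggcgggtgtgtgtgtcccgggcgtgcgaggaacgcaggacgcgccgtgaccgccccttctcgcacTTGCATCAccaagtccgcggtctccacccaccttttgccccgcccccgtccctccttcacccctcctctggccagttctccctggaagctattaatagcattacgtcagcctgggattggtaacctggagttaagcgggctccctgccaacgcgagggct
Trib3: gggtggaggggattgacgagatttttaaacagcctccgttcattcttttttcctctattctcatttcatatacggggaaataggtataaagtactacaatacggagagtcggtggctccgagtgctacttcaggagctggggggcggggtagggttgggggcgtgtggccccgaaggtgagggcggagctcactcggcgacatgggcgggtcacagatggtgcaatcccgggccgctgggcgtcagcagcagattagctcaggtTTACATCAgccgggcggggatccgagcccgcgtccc
The core was in 8 of 32 windows (25.0%) of the ATF4 list and in 5 of 13 windows (38.5%) of the synthetases, against 2.12% of the windows of all genes tested. The window of Ddit3 held 0 matches. Other motifs were scanned in the same way. The sterol regulatory element TCACNCCAC was in 1 of 20 windows (5.0%) of the sterol list and 1.08% of all windows. The EGR element GCGTGGGCG was in 0 of 19 windows of immediate early genes, 0 of 12 of MAPK feedback genes and 1.21% of all windows. The E-box CACGTG was in 6 of 25 windows (24.0%) of the clock genes and 10.1% of all windows.

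Ribosomal protein genes were higher under DZ than under adenine, but below control under both. Of 78 genes, 73 were higher under DZ and 0 lower, with a median log2 difference of 0.571. The median against control was -0.554 for DZ and -1.11 for adenine, and 0 of the 78 were called higher than control under DZ. Rps7 (chr12, 28677933 to 28686292), of the small subunit, was at 8.75, 8.74 and 8.67 under DZ, at 7.63, 7.62 and 7.62 under adenine and at 9.30 ± 0.03 in control. The 3 groups did not overlap, and the difference of DZ and adenine was 1.10 ± 0.04. Rpl41, of the large subunit, differed by 1.18 and Rpl18 by 0.86. The smallest difference called was that of Rpl22, 0.18, while Rps29 did not pass (log2 difference -0.20, 95% interval -0.33 to -0.06). These genes have many processed copies, among which reads may be divided, and the copies in the table moved with them: of 151 ribosomal protein pseudogenes, 132 were higher and 0 lower, with a median of 0.554.

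**Figure D4:**
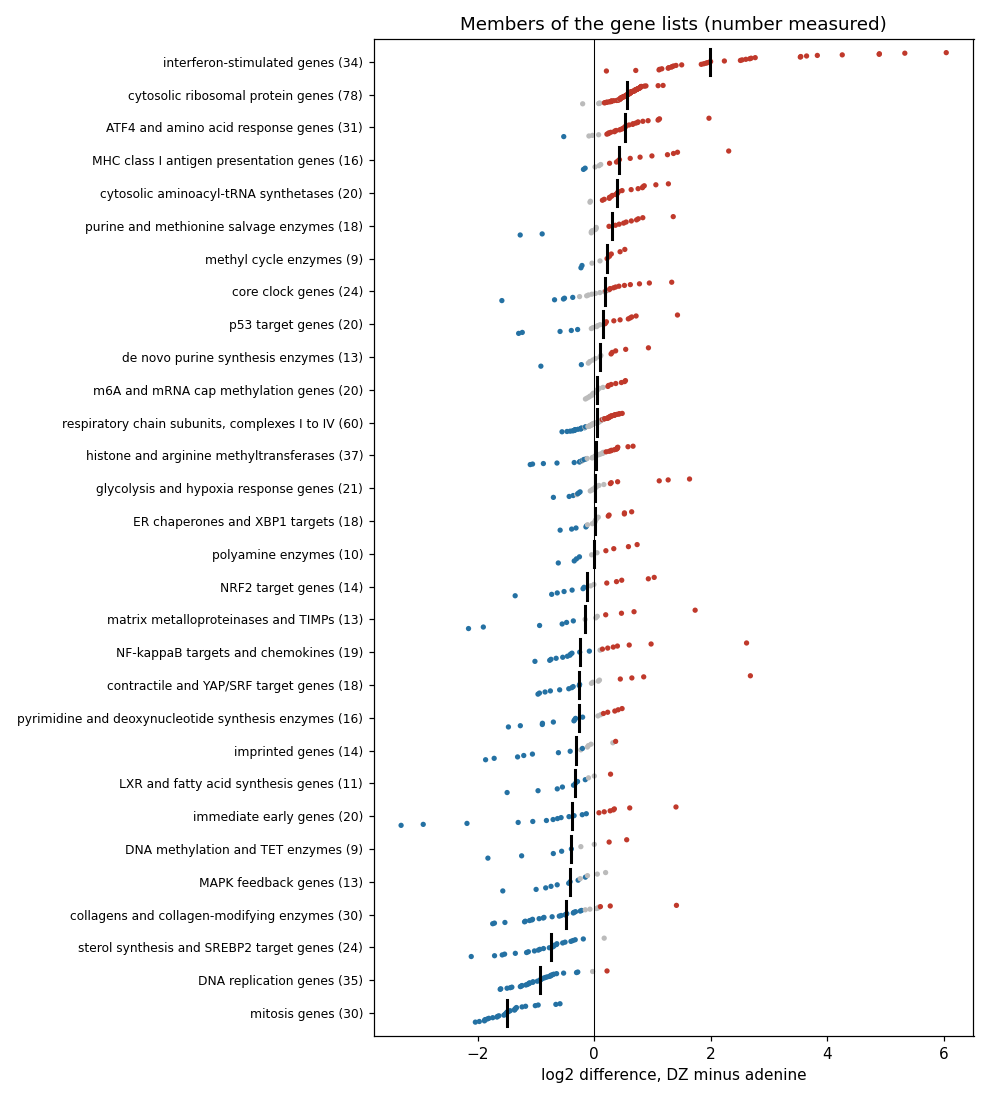
Log2 difference, DZ minus adenine (x axis), of every measured member of 30 gene lists, ordered by median (black bar); red members were higher and blue members lower under DZ at a false discovery rate under 0.01, and grey members did not pass. Interferon-stimulated genes stand at the top (median 1.99) and mitosis genes at the bottom (median -1.5).

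Genes of the methyl cycle and of purine handling, the pathways on which both compounds are known to act, went in both directions. Ahcy, the target of DZ, was at 7.12, 7.14 and 7.18 log2 CPM under DZ and at 7.33, 7.37 and 7.37 under adenine, 0.21 lower (adjusted p = 5.23e-06), and adenine minus control was -0.03 (adjusted p = 0.3). Mat2a, which makes SAM, was at 8.21, 8.21 and 8.20 against 7.89, 7.86 and 7.99, 0.29 higher under DZ. Both treatments lay below its control mean of 8.51, DZ by 0.30 and adenine by 0.59. Mettl16, the methyltransferase that senses SAM and governs Mat2a splicing, was 1.44-fold higher under DZ, and Mtrr and Mtr, which regenerate methionine, were 0.44 and 0.26 higher. Over the 9 methyl cycle genes measured, 5 were higher and 2 lower (median 0.221).

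Among the 18 salvage genes, 10 were higher and 2 lower under DZ (55.6% and 11.1%, median 0.31). The called share of 66.7% was near the background of 64.3%. Nt5e (chr9, 88209089 to 88254146), the ecto-enzyme that makes adenosine from AMP outside the cell, was at 6.67, 6.68 and 6.63 under DZ and at 5.36, 5.30 and 5.25 under adenine, 2.56-fold higher. The DZ dishes all lay a little above the control dishes (6.59 ± 0.02), but DZ minus control, 0.07, did not pass (adjusted p = 0.14). The adenine dishes were 1.29 below control. Aprt, which converts adenine to AMP, was at 7.80, 7.74 and 7.78 against 6.94, 6.95 and 6.93, 1.78-fold higher under DZ. It was 0.48 below control under adenine and 0.35 above it under DZ. Slc43a3, a purine base transporter, was 1.66-fold higher, whereas Slc29a1, the equilibrative nucleoside transporter, was 1.86-fold lower under DZ. Ada, which deaminates adenosine, was 1.69-fold higher and Mtap, which releases adenine from methylthioadenosine, 1.19-fold. Adk, adenosine kinase, did not pass the threshold: 6.29, 6.33 and 6.30 under DZ, 6.36, 6.38 and 6.33 under adenine, and a log2 difference of -0.05 (95% interval -0.14 to 0.04). Dck, the kinase that salvages deoxycytidine, was 2.41-fold lower. In the new synthesis of purines Impdh2, the step towards GMP, was 1.89-fold lower under DZ, Atic 1.46-fold higher and Adsl 1.29-fold higher. In all, 5 of 13 were higher and 2 lower, a called share of 53.8%, below the background. Of the polyamine genes, which draw on SAM, 4 of 10 were higher and 4 lower (40.0% each, against a background of 32.1% and 32.2%). The catabolic enzyme Sat1 was 1.67-fold higher, and Amd1, which decarboxylates SAM, 1.50-fold higher, although Amd2 is nearly identical to it.

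The enzymes that methylate RNA, histones and DNA were mixed. Of 20 m6A and cap methylation genes, 7 were higher and 0 lower, a called share of 35.0% against the background of 64.3%, and the median was 0.0559. Mettl3, the catalytic subunit of the m6A writer, was at 5.43, 5.38 and 5.47 under DZ and at 4.93, 4.83 and 4.94 under adenine, 1.44-fold higher. Of 37 histone and arginine methyltransferases, 12 were higher and 10 lower, a called share of 59.5%, near the background of 64.3%. Suv39h1, which methylates lysine 9 of histone H3, was at 4.94, 5.01 and 5.02 against 6.08, 6.07 and 6.12, 2.14-fold lower under DZ. Ezh2, the catalytic subunit of Polycomb complex 2, was 1.83-fold lower. Prmt5, the main writer of symmetric arginine dimethylation, was 0.12 higher and did not pass (adjusted p = 0.011, 95% interval 0.04 to 0.20), though it passed under 5 of the alternatives tried, with adjusted p from 0.00172 to 0.00999. Of 9 DNA methylation and TET enzymes, 5 were lower and 2 higher. The maintenance DNA methyltransferase Dnmt1 and its partner Uhrf1 were 2.37-fold and 3.54-fold lower under DZ; both are also known to be made in S phase. Dnmt3b, of new DNA methylation, was 1.47-fold higher. Of 14 imprinted genes measured, 8 were lower and 1 higher. The maternally expressed RNA H19 was at 5.34, 5.48 and 5.59 under DZ, at 7.35, 7.59 and 7.06 under adenine and at 4.61 ± 0.06 in control, 3.64-fold lower under DZ than under adenine and above control under both. Mest was 3.29-fold lower under DZ and likewise above control under both, by 1.43 with DZ and 3.15 with adenine.

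Of 24 clock genes, 11 were higher and 5 lower under DZ (45.8% and 20.8%, median 0.189). The called share of 66.7% was near the background of 64.3%. The clock turns as CLOCK and BMAL1 switch on the Period and Cryptochrome repressors and the REV-ERB receptors. Cry1, a repressor, was at 4.97, 5.03 and 4.86 under DZ and at 4.09, 4.08 and 3.86 under adenine, 1.93-fold higher. Ciart, another repressor, was 2.52-fold higher, and Nr1d1, a REV-ERB receptor, 1.71-fold higher. Bmal1 was at 4.12, 4.26 and 4.08 against 4.53, 4.49 and 4.55, 1.29-fold lower under DZ. Per2, whose product carries the luciferase reporter in these cells, was at 1.99, 1.99 and 2.01 under DZ and at 1.39, 1.76 and 0.98 under adenine. The adenine dishes spread over more than the whole difference of 0.62 ± 0.17 (adjusted p = 0.00379). That difference was 0.42 (adjusted p = 0.024) without the third adenine dish. The call was also lost on leaving out any single DZ dish or the first adenine dish (adjusted p from 0.0107 to 0.0123). Csnk1d, the kinase that sets PER stability, was 0.20 higher, and its relative Csnk1e 0.52 higher. Timeless, listed with the clock but best known at the replication fork, was 3.00-fold lower. For Clock and Per1 the log2 differences were 0.10 (95% interval 0.00 to 0.19) and -0.10 (-0.21 to 0.02). All dishes were lysed at a single time after treatment, so that a shift of phase and a change of level cannot be told apart.

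**Figure D5:**
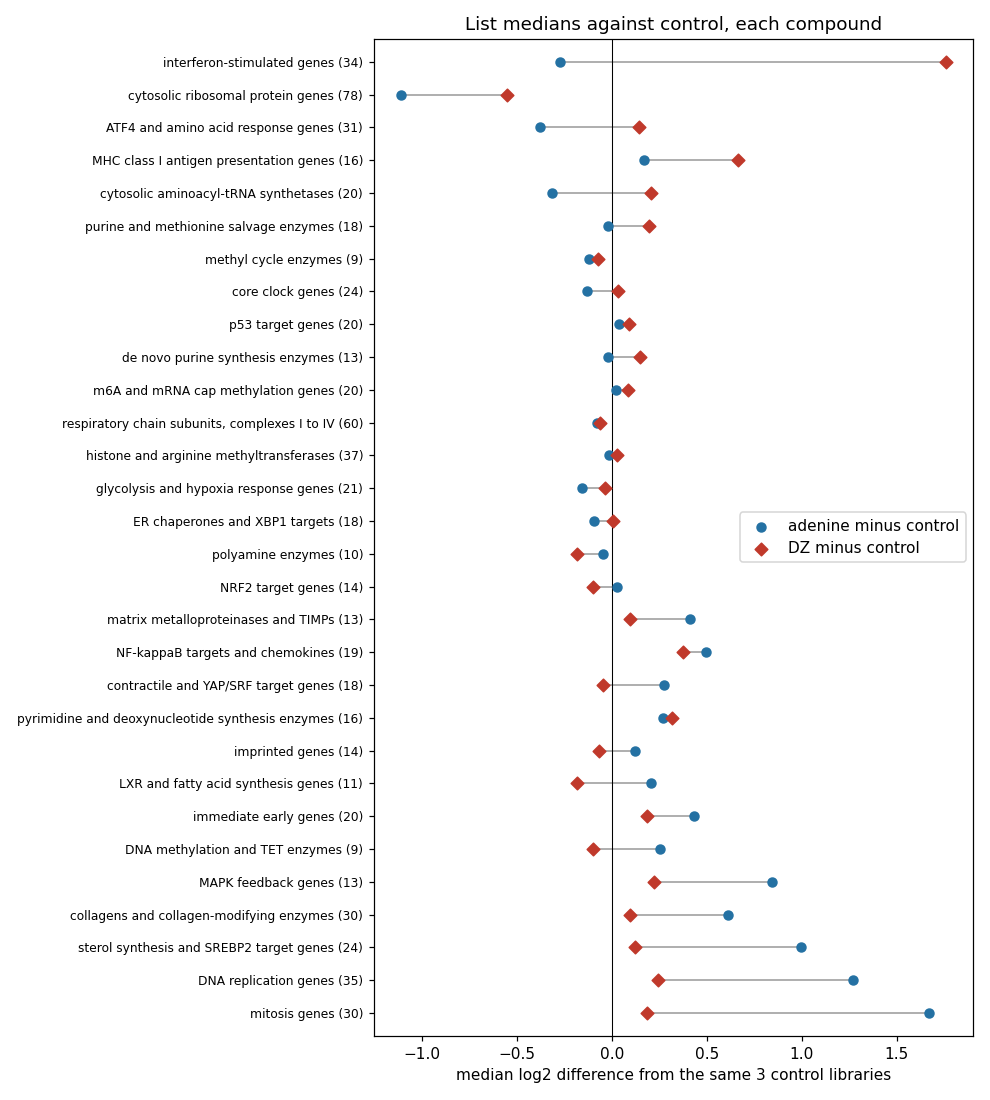
Median log2 difference from the same 3 control libraries (x axis) for each of 30 gene lists, adenine as blue circles and DZ as red diamonds; the pairs share their controls and are shown side by side only. For mitosis genes adenine lies at 1.67 and DZ at 0.182, and for ribosomal protein genes both lie below 0, at -1.11 and -0.554.

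Other lists split without a common direction. The 60 subunits of respiratory complexes I to IV had 20 higher and 15 lower (33.3% and 25.0%), near the background of 32.1% and 32.2%. Their median was 0.0469, led by Ndufa10, a complex I subunit (1.40-fold higher). Of 18 ER chaperones and XBP1 targets, 5 were higher and 5 lower (27.8% each, near the background), with the chaperone Hspa5 1.43-fold higher. Of 14 NRF2 targets, 5 were higher and 7 lower. Heme oxygenase Hmox1 was 2.04-fold higher under DZ and the quinone reductase Nqo1 2.56-fold lower. Of 21 glycolysis and hypoxia genes, 6 were higher and 6 lower (28.6% each, near the background). The higher ones included Egln3, the oxygen-sensing prolyl hydroxylase (3.11-fold), the stress gene Ndrg1 (2.41-fold) and hexokinase Hk2 (2.17-fold).

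Several of the largest differences belonged to genes outside these lists. Of the 10 protein-coding genes with the largest differences towards DZ (mean of 3 log2 CPM or more), 9 were interferon-related, including Igtp and Phf11d, and the other was Myom2, which encodes a sarcomere protein. Myom2 was at 6.14, 6.01 and 6.05 under DZ, at 1.86, 1.74 and 1.91 under adenine and at 4.21 ± 0.14 in control. It was 18.8-fold higher under DZ than under adenine. The 3 control dishes lay between these groups, whose lack of overlap the naming rule required. Towards adenine, Angpt1 (chr15, 42288058 to 42540417), a ligand of the endothelial receptor TIE2, was at 2.20, 2.21 and 2.56 under DZ and at 5.15, 5.18 and 5.09 under adenine. It was 7.06-fold lower under DZ, and DZ minus control was 0.15 (adjusted p = 0.21). Enpp1 (chr10, 24513812 to 24588057), which hydrolyses extracellular nucleotides and the immune messenger cGAMP, was at 5.16, 5.52 and 5.40 against 7.93, 7.94 and 7.89, 5.89-fold lower. Xkr5, Glt8d2 and Omd, a proteoglycan of bone matrix, were 5.79-fold, 5.73-fold and 5.14-fold lower. Depdc1a, a mitotic regulator, was 5.02-fold lower, and Parpbp, which restrains homologous recombination, 4.88-fold lower. Tnfrsf25, a death receptor, was 4.95-fold lower. Control lay between the groups for Tnfrsf25 and Glt8d2: DZ was 1.57 and 1.20 below it, and adenine 0.74 and 1.32 above it. For Xkr5, Depdc1a and Parpbp the difference of DZ and control did not pass the threshold. Enpp1 and Omd were above control under DZ, by 0.24 and 0.40. Fgf2, a fibroblast growth factor, was at 3.40, 3.67 and 0.66 under DZ and at 4.92, 4.998 and 4.73 under adenine. The third DZ dish set its log2 difference of -2.31 ± 0.50 (adjusted p = 0.000723), which was -1.35 without that dish.

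The genes that differed by at least 1 did not stand alike towards control. For the 241 that were higher under DZ, the median difference from control was 0.541 for DZ and -0.853 for adenine. For the 684 that were lower, it was 0.0105 for DZ and 1.44 for adenine. These genes were chosen by the contrast itself, so the values describe them and test nothing. Differences near 0 were also measured well for part of the transcriptome: for 2938 genes (23.3%) the whole 95% interval lay within 0.25 of 0, although 520 of these still passed the false discovery rate. Genes not called, 4498 in all, are not shown to be alike where their intervals were wider.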

How the data were processed

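RNA of 12 dishes (4 groups of 3) was sequenced as poly-A selected, stranded, paired-end libraries. The authors trimmed reads with Trimmomatic, aligned them with HISAT2 to GRCm39, counted genes with StringTie on GENCODE annotation and deposited edgeR log2 CPM values (prior count 2) for genes that reached 1 CPM in every sample; versions are not given in the sources used here. The prior and the scaling are those of the authors, and 100% of the deposited values in the 12 libraries came out as whole reads within 0.02 when converted back. These gave the depth and the reads for one alternative test.

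All 12 libraries were fitted in limma 3.58.1 (R 4.3.3) as 4 groups with an intensity trend, and DZ minus adenine was tested with Benjamini-Hochberg adjustment over 12591 genes (threshold 0.01). An exact permutation test of 3 against 3 cannot go below 0.1, so none was used. Fold changes are on the log2 scale with the prior count and understate those of low genes. The script was tested on simulated data. Positions are from GENCODE vM39, which matched 12575 genes.

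Genes named were the 10 largest each way (protein-coding, mean of at least 3 log2 CPM, no overlap of dishes), up to 3 of smallest adjusted p per list, and Ahcy, Mat2a, Mtap, Aprt, Adk, Ada, Per2, Csnk1d and Prmt5. Other list members were named for their role after their values were seen. The members, lists and rules were chosen with earlier results of these data known. Alternatives covered trend, robust fit, filters, scaling, pseudocount, samples in the fit, pairing, voom, thresholds and leaving out each dish.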

Additional observations from a re-analysis of the deposited data

How the results depend on the processing

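The counts of genes called kept within 1.5 times of the values given under every alternative but a stricter null. When limma's treat required an absolute log2 difference over 0.5, 1739 genes passed in place of 8093, 608 higher and 1131 lower under DZ, since it tests a larger difference. Leaving out each DZ or adenine dish in turn gave 7521 to 7598 genes called, 3753 to 3804 higher and 3768 to 3832 lower, and 911 to 946 with an absolute log2 difference of at least 1. Of the scalings, the split of calls was widest apart in these: 4481 were higher under DZ with each library centred on its median and 3660 with plain read totals, while the median of all genes moved to 0.0352 and -0.0379. The call of Fgf2 was lost with robust empirical Bayes (adjusted p = 0.0132), and the cause was not tested. None of the genes named by rule changed direction under any of these; list members named for their role were not run gene by gene. The median of the matrix protease list turned from -0.155 to 0.041 and the imprinted genes called lower fell from 8 to 4 when only genes with a mean of 3 or more log2 CPM were kept, because fewer genes remained.

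The values showed no sign that the replicate numbers pair the dishes: deviations of DZ and adenine dishes with the same number correlated at -0.142, -0.0412 and -0.00777 across genes. Deviations from a mean of 3 dishes leave few free values, so they cannot settle whether the dishes were handled in numbered sets. A fit with the number as a block called 8090 genes, and Prmt5 was called in it (adjusted p = 0.00438).

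With 3 dishes a group the median standard error was 0.0546, and genes silent in any library are outside the table.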

Other observations

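Some gene families were looked up by their symbols after the results had been seen, and their values, without pseudogenes, are given as a description. Some of their members also belong to the lists above. All 7 guanylate-binding proteins and interferon-inducible GTPases in the table were higher under DZ, with a median log2 difference of 2.6. Of these, Gbp2, Igtp and Irgm1 were already counted among the interferon-stimulated genes. They attack the membranes around intracellular microbes. Gbp2 was at 4.26 ± 0.07 (SD, n = 3) log2 CPM under DZ and 1.66 ± 0.16 under adenine, and Irgm1 at 7.49 ± 0.03 and 5.61 ± 0.01. Of the 6 members of the IFI200 family of nucleic acid sensors, 5 were higher, among them Ifi207 (4.36 ± 0.05 against 0.50 ± 0.19), while the DNA sensor Aim2 did not pass (log2 difference -0.24, 95% interval -0.57 to 0.10). Several of these genes have close copies, among which reads may be divided.

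Further from interferon, 55 of 78 mitochondrial ribosomal protein genes were higher and 5 lower under DZ (median 0.315), as were 40 of 64 translation factors, with 4 lower (median 0.253), and 23 of 36 proteasome subunits, with 1 lower. Of 30 cathepsins, LAMP proteins and subunits of the vacuolar ATPase, which serve the lysosome, 23 were higher and 1 lower (median 0.335). Against control the lysosomal genes had a median of -0.0796 for DZ and -0.476 for adenine. In the other direction, 9 of 10 SR splicing factors were lower and 0 higher (median -0.276), and 154 of 327 zinc finger genes named Zfp were lower and 29 higher (median -0.215). Of 20 transcripts made in the mitochondrion itself, 2 were higher and 3 lower.

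The kind of gene and its level went along with the difference. Of 1263 pseudogenes, 41.8% were higher and 10.1% lower under DZ, against 31.3% and 35.0% of 10948 protein-coding genes. Among protein-coding genes, the 2737 with the lowest mean level had 19.1% higher and 39.5% lower under DZ and a median log2 difference of -0.166, and the 2737 with the highest level 41.3% and 31.3% and a median of 0.0447. The 2737 with the longest transcripts (6100 bases or more) had 25.6% higher and 38.2% lower, and the 2737 with the shortest 36.8% and 31.1%. Level, length and gene family are tied to each other, and their separate parts were not tested.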
